A study of Drosophila melanogaster with 4 samples.

Results

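The 5 assembled heterochromatin sequences 2LHet, 3LHet, 3RHet, XHet and YHet of Drosophila melanogaster held 408 of the 20574 clusters called enriched for the protein POF in the combined list of a ChIP-seq experiment. The same sequences held 153 of 6433 clusters in the list of ChIP replicate 1 and 55 of 5786 in that of ChIP replicate 2. Members were taken by the name of the sequence they lie on, with no use of their values. Of the 408, 195 lay on 3LHet, 170 on 3RHet, 26 on 2LHet, 14 on XHet and 3 on YHet. The experiment used larvae of the wild-type strain Oregon-R in the 3rd instar, with 2 POF ChIP libraries and 2 input libraries, and a rabbit antibody raised against residues 1 to 150 of POF. All 4 samples share strain, stage and genotype. No label gives the sex of the larvae, on which the presence of the Y chromosome depends. Separate cultures are not stated for the replicates either, so their spread may be technical. The chromatin came from homogenized larvae, so fewer cells with binding and weaker binding in each cell cannot be told apart.

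POF is an RNA-binding protein best known for coating the small chromosome 4, where it associates with transcribed genes. Chromosome 4 is itself rich in repeats and in the heterochromatin protein HP1, and for that reason POF is often discussed together with heterochromatin. Sequences whose names end in Het are stretches of pericentric DNA, or of the Y, that release 5 of the genome kept apart from the chromosome arms. They are dense in transposable elements and other repeats and hold scattered genes that are active in a heterochromatic setting. The sequence lengths used below are those of the file headers and may include runs of unsequenced bases, which were not analysed here.

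The labels and the lists disagree in part on the libraries. The library titled ChIP replicate 2 is described as input DNA, and the one titled input replicate 1 carries the description of the antibody. Titles and source names match each other and were followed. On chromosome 4, the known target of POF, clusters covered 27.9% of the bases in the replicate 2 list and 3.92% in that of replicate 1, while all arms were covered to 10.7% and 8.96% in those lists. The combined list showed little excess there, with 31.3% of chromosome 4 and 30.96% of all arms covered. Its cluster density was 116 per Mb on chromosome 4 and 163 per Mb on all arms. Replicates 1 and 2 below stand for the ChIP libraries so titled, and whether either label is wrong was not tested.

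POF clusters were sparse on the heterochromatin sequences. In the combined list they covered 11.8% of the 5993020 bp, against 30.96% of the arms (chromosomes 4 and X with 2L, 2R, 3L and 3R), a ratio of 0.381. The ratio was 0.529 in replicate 1 (4.74% against 8.96%) and 0.174 in replicate 2 (1.86% against 10.7%). Over both replicates the heterochromatin sequences averaged 3.30% ± 2.04 and the arms 9.84% ± 1.24 (SD, n = 2), a difference larger than either SD. Taken within each replicate, the ratio of heterochromatin to arms averaged 0.351 ± 0.251 (SD, n = 2). The heterochromatin mean rests on unequal libraries, since it is 1.86% without replicate 1 and 4.74% without replicate 2. With 2 ChIP libraries a two-sided exact sign-flip test cannot give a p below 0.5, so no p is given for this or any later difference, and clusters of a list are not replicates.

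The low coverage went with fewer clusters far more than with shorter ones. There were 68.1 clusters per Mb on the heterochromatin sequences and 163 on the arms in the combined list, a ratio of 0.418. In replicate 1 these densities were 25.5 and 50.8 per Mb, and in replicate 2 they were 9.18 and 47.1 per Mb. The mean cluster length on the heterochromatin sequences was 0.911 times that on the arms in the combined list, 1.05 times in replicate 1 and 0.892 times in replicate 2.

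Each sequence was covered less than the arm of the same name. In the combined list the ratio to the own arm was 0.474 for 3LHet, 0.443 for XHet, 0.428 for 2LHet and 0.325 for 3RHet. In the replicate 1 list it was 0.686 for 3LHet, 0.455 for 3RHet and 0.281 for 2LHet, while XHet held no cluster. In the replicate 2 list it was 0.386 for XHet, 0.358 for 2LHet, 0.212 for 3LHet and 0.137 for 3RHet. The order of the sequences thus differed between the replicates. The 4 sequences other than YHet lay close together in the combined list, at 13.8% for 3LHet, 11.96% for 2LHet, 11.6% for XHet and 11.2% for 3RHet, whereas YHet was covered to 1.08%. For comparison, 2RHet was covered to 10.6% and the unplaced sequence U to 5.26% in that list.

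**Figure D1:**
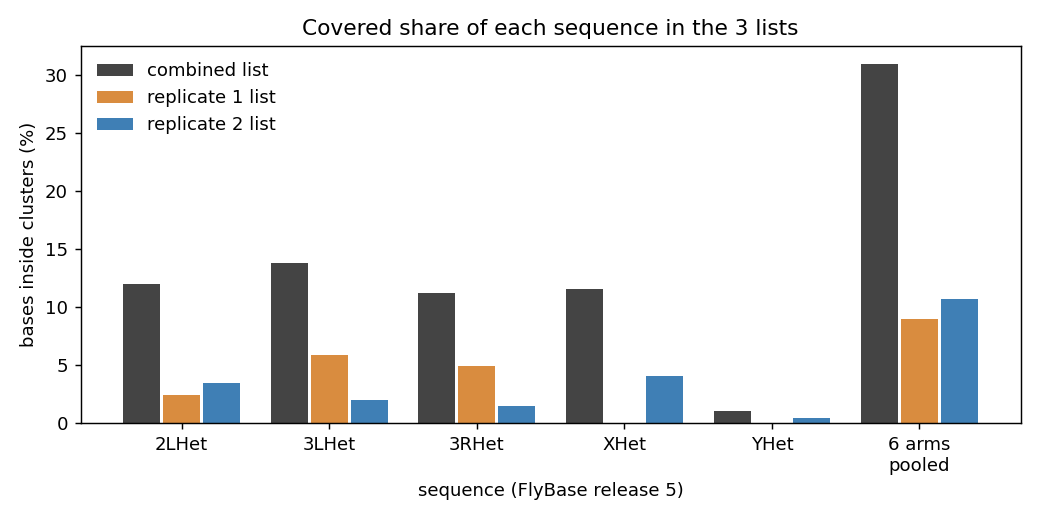
Percentage of bases inside clusters (vertical axis) for the 5 heterochromatin sequences and, at the right, the 6 arms pooled, with 1 bar for each list. In all 3 lists every heterochromatin sequence lies below the arms, and replicate 1 has no bar on XHet and YHet because it holds no cluster there.

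Replicate 1 held more clusters than replicate 2 on the 2 long sequences. On 3LHet, 2555491 bp long, replicate 1 had 77 clusters and replicate 2 had 26, for covered shares of 5.91% and 2.01%. On 3RHet, 2517507 bp long, there were 71 and 19 clusters and covered shares of 4.93% and 1.50%. The direction was the same on 2RHet, with 71 and 25 clusters (3.96% and 1.41% covered), and on U, with 89 and 38 (1.47% and 0.733%). On the arms replicate 1 also held more clusters, 6120 against 5668 in replicate 2, but its covered share was the smaller one. On 2LHet both replicates had 5 clusters, with covered shares of 2.43% and 3.45%.

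Clusters were spaced more widely than on the arms. The median gap between neighbouring clusters was 5963 bp on the heterochromatin sequences and 2214 bp on the arms in the combined list. It was 15501 bp against 9606 bp in replicate 1, and 52677.5 bp against 7544.5 bp in replicate 2. Gaps of at most 1000 bp made up 16.1% of the heterochromatin gaps and 29.8% of the arm gaps in the combined list, with 7.33% of heterochromatin gaps and 8.88% of arm gaps in replicate 1, and 6% and 13.3% in replicate 2. When clusters within 1000 bp were joined, the 408 combined clusters became 343 (84.1% of their number), and the 19605 on the arms became 13765 (70.2%). The longest joined stretch was 13478 bp on the heterochromatin sequences, on 3RHet, and 51830 bp on the arms.

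Coverage varied along 3LHet and 3RHet. With each sequence divided into 10 equal segments from its first base, combined clusters covered between 7.02% and 25.3% of the segments of 3LHet (median 12.2%). The leading segments were 6 (25.3%), 3 (19.8%) and 2 (18.7%). In replicate 1 the same 3 segments led, at 14.2%, 11.2% and 8.09%. In replicate 2, segment 3 led with 7.15%, segment 6 had 2.32%, and segments 2 and 5 held no cluster.

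On 3RHet, combined clusters covered between 3.08% and 21.9% of the segments (median 10.8%), with segments 8 (21.9%) and 7 (20.2%) highest. Both replicates also had their highest values there, 10.98% and 8.40% in replicate 1 and 4.61% and 4.90% in replicate 2. Replicate 2 held no cluster in segments 2 to 5. Across the 10 segments, Spearman's rho between the covered shares of the replicates was 0.81 on 3RHet and 0.44 on 3LHet. These describe neighbouring segments that share 2 libraries and an unknown mappable length.

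**Figure D2:**
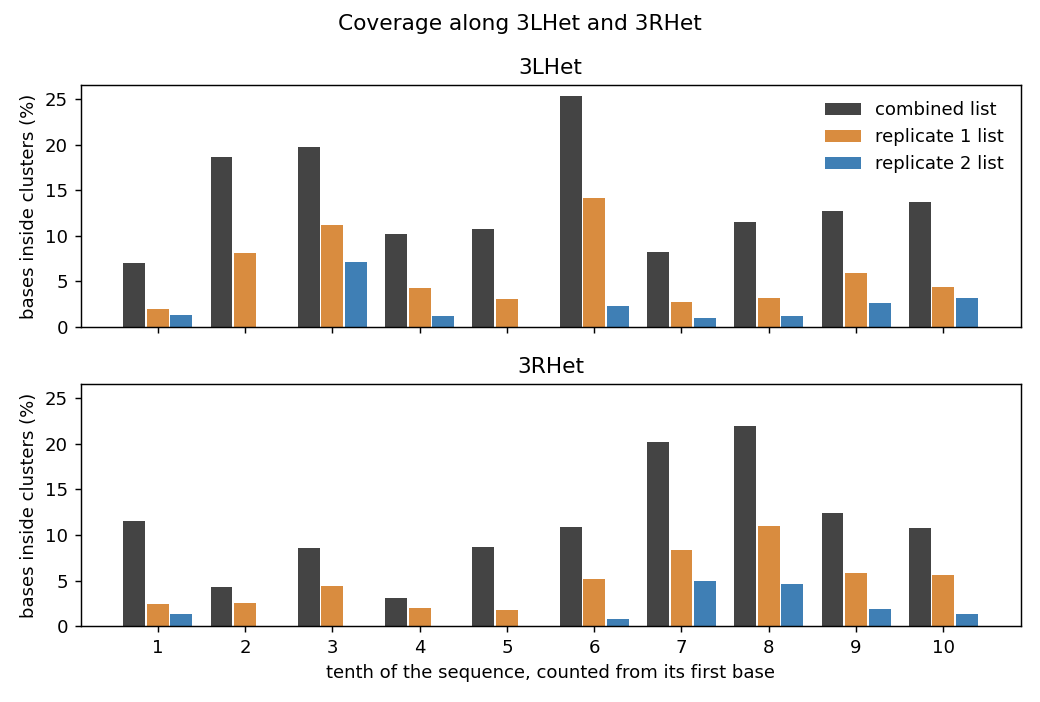
Percentage of bases inside clusters (vertical axis) in 10 equal segments of 3LHet (top) and 3RHet (bottom), counted from the first base of each, with 1 bar for each list. Segments 7 and 8 of 3RHet stand highest in every list, while the peak of 3LHet is in segment 6 for the combined list and replicate 1 and in segment 3 for replicate 2.

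On 3LHet and 3RHet, replicate 2 had the longest stretches without clusters. Its longest gap on 3RHet ran over 1247460 bp, from 69847 to 1317306, a stretch in which replicate 1 had 23 clusters and the combined list 59. Its longest gap on 3LHet ran over 539349 bp, from 14978 to 554326, where replicate 1 had 13 clusters and the combined list 39. The longest gap of replicate 1 on 3LHet measured 223054 bp (10835 to 233888) and held 1 cluster of replicate 2, and that on 3RHet measured 134268 bp (299062 to 433329) and held none. On 2LHet the longest gap was 135710 bp in replicate 1 and 102794 bp in replicate 2, and XHet and YHet held no replicate 1 cluster at all. In the combined list no gap between clusters exceeded 109202 bp on any of the 5 sequences, although the first 203736 bp of YHet held none.

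Lengths differed little from those on the arms, and not in 1 direction. The median length was 1463.5 bp on the heterochromatin sequences and 1529 bp on the arms in the combined list, 1696 bp and 1598 bp in replicate 1, and 1776 bp and 1987 bp in replicate 2. The difference averaged -56.5 bp ± 218 (SD, n = 2) over the replicates, which is within their spread. Clusters of at least 3000 bp numbered 29 in the combined list, 7.11% of the heterochromatin clusters against 11.7% on the arms and 11.4% over all sequences. They numbered 10 in replicate 1 (6.54%, against 4.05% on the arms and 4.07% over all sequences) and 6 in replicate 2 (10.9%, against 16.3% on the arms and 16.1% over all sequences). All 29 in the combined list were touched by at least 1 base of a replicate cluster, as were 95.2% of such clusters on the arms and over all sequences. At the other end, 29 combined clusters (7.11%) had the shortest length in that list, 1001 bp, against 1.75% on the arms and 2.08% over all sequences. The share was uneven, with 15.4% on 2LHet, 9.41% on 3RHet, 4.10% on 3LHet, none on XHet and 1 of 3 clusters on YHet. On 2RHet clusters of this length made up 3.90%, and on U 13.2%. The replicate lists held no cluster of that length anywhere (0.00% in each).

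Scores were higher than on the arms. Each cluster carries 1 score from the authors, a log2 value with no stated reference, which is comparable only within a list. The median score was 0.57 on the heterochromatin sequences and 0.43 on the arms in the combined list, 0.77 and 0.63 in replicate 1, and 0.72 and 0.62 in replicate 2. The difference averaged 0.12 ± 0.02 over the replicates (SD, n = 2) and was larger than their spread. The 90th percentile of heterochromatin scores was 1.30 while that of the arms was 0.56 in the combined list. It was 1.20 and 0.77 in replicate 1, and 1.28 and 1.07 in replicate 2. These differences were larger than those of the medians. For 2LHet, 3LHet and 3RHet alone, that did not hold in replicate 2. Their 90th percentile lay 0.085 above that of the arms there, and their median 0.096 above. Against the arm of the same name, the median score of XHet was lower in replicate 2 (0.68 against 0.71). That of 2LHet was nearly equal in replicate 1 (0.63 against 0.62). For the other sequences and lists with clusters and an arm of that name it was higher.

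The score difference varied with the range of cluster lengths compared. Scores stepped up at 2000 bp on the arms, where the median was 0.47 for combined clusters in the 200 bp from 2000 bp and 0.42 for those in the 200 bp below it. Among combined clusters of at least 2000 bp, the median was 0.55 on the heterochromatin sequences and 0.47 on the arms. In replicate 1 it was 0.81 against 0.70. In replicate 2 the direction turned, with 0.73 on the heterochromatin sequences (20 clusters) and 0.77 on the arms (2784 clusters). That class has no upper limit of length. Within the 200 bp from 2000 bp the heterochromatin median was the higher in every list, 0.53 against 0.47 among combined clusters. There it was 0.88 against 0.69 in replicate 1 (17 and 601 clusters), and 0.69 against 0.66 in replicate 2 (10 and 757 clusters). Under 2000 bp, heterochromatin clusters had the higher median in every list. It was 0.59 and that of the arms 0.42 among combined clusters, with 0.75 and 0.61 in replicate 1, and 0.69 and 0.54 in replicate 2.

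High scores were common among these clusters. Of the 408, 199 (48.8%) were among the highest 10.0% of scores in the combined list, against 7.66% of arm clusters. In replicate 1 they were 73 of 153 (47.7%, against 7.75% on the arms and 10.0% over all sequences). In replicate 2 they were 9 of 55 (16.4%, against 9.67% on the arms and 10.0% over all sequences). The 2 long sequences differed in this, with 102 of 170 clusters on 3RHet (60%) and 74 of 195 on 3LHet (37.9%) in the combined list. The highest 1.00% of combined scores held 26 heterochromatin clusters (6.37%), against 0.321% of arm clusters. The highest 1.01% in replicate 1 held 17 (11.1%, against 0.310% of arm clusters), and the highest 1.00% in replicate 2 held 5 (9.09%, against 0.847%). On 2RHet, the sequence most alike in kind, the median combined score was 0.56, and on U it was 0.98.

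Many of the highest scores belonged to very short clusters. Some scores lie a log2 ratio of small whole numbers away from the score that occurs most often in their list. With a denominator of at most 10, and leaving out the most frequent score itself, 45 combined heterochromatin clusters (11.03%) had such a score, against 0.689% on the arms and 1.61% over all sequences. Such scores made up 12.2% on 2RHet and 35.4% on U. The 45 clusters measured 1028 bp and scored 1.55 at the median, and 42 of the 45 were among the highest 10% of scores. Of the 45, 6 (13.3%) were touched by a replicate cluster, that is, shared at least 1 bp with it, against 25.2% of such clusters on the arms and 18.1% over all sequences. The remaining 363 clusters measured 1548 bp and scored 0.55 at the median. In replicate 1 such scores made up 9.15% on the heterochromatin sequences, against 2.32% on the arms and 2.78% over all sequences. In replicate 2 they made up 3.64% (2 clusters), against 0.829% on the arms and 0.951% over all sequences.

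Of the 26 clusters in the highest 1.00% of combined scores, 23 had such a score. A replicate cluster touched 3 of the 26 (11.5%), against 27 of 63 (42.9%) on the arms and 20.9% over all sequences. The highest heterochromatin score, 3.57, belonged to a 1082 bp cluster on 3LHet at 2079511 to 2080592. The next 2, both on 3RHet and both 1001 bp long, shared a score of 3.40, at 1143504 to 1144504 and at 1354389 to 1355389. None of these 3 was touched by a replicate cluster, and they are given here because of their scores. Without clusters of this kind, the median score of the heterochromatin sequences was still 0.12 above that of the arms in the combined list.

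**Figure D3:**
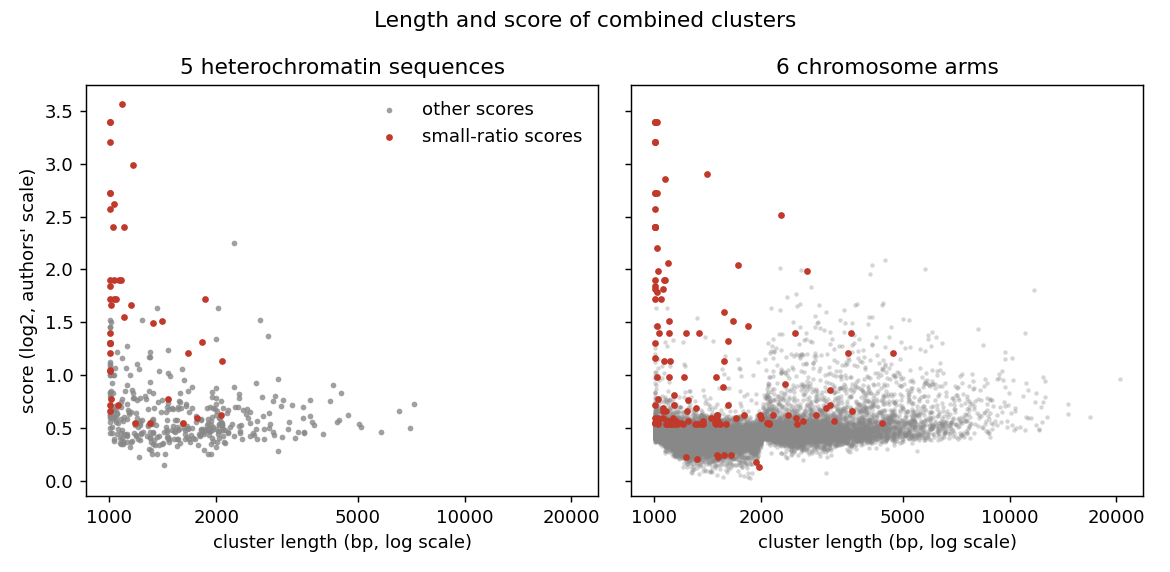
Score of each combined cluster (vertical axis, log2 on the authors' scale) against its length (horizontal axis, bp on a log scale), for the 5 heterochromatin sequences (left) and the 6 arms (right). Red points have scores that differ from the most frequent score by a ratio of small whole numbers, 45 at the left and 135 at the right. Most heterochromatin clusters above a score of 2 are red and close to the shortest length.

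Among heterochromatin clusters the share touched by a replicate was lower for high scores than for the rest, and among arm clusters it was higher. Among heterochromatin clusters in the highest 10.0% of combined scores, 61 of 199 (30.7%) were touched by either replicate, against 1124 of 1502 (74.8%) on the arms and 62.2% over all sequences. Below that rank the shares were 113 of 209 (54.1%) and 8479 of 18103 (46.8%). Replicate clusters were at least 1301 bp long, and shorter combined clusters were seldom touched, 17 of 155 (10.97%) on the heterochromatin sequences and 15.6% on the arms. Of all combined clusters of at least 1301 bp, 157 of 253 on the heterochromatin sequences were touched (62.1%, against 67.1% on the arms and 66.6% over all sequences). Among high-scoring clusters of at least 1301 bp, 53 of 97 heterochromatin clusters (54.6%) were touched, against 1107 of 1221 (90.7%) on the arms and 83.4% over all sequences. The difference from the arms was thus present among clusters long enough to be listed in a replicate. These high-scoring clusters were not alike in length, with a median of 1983 bp on the heterochromatin sequences and 3222 bp on the arms. Whether length accounts for the difference was not tested.

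Over all scores, 21 of the 408 combined clusters (5.15%) were touched by both replicate lists, against 8.40% over all sequences. Replicate 1 alone touched 117 (28.7%, against 20.8%), replicate 2 alone touched 36 (8.82%, against 19.2%), and neither touched 234 (57.4%, against 51.6%). The exact 95% interval of the share touched by either list, 42.6%, is 37.8% to 47.6% and covers counting error over clusters only. On the arms this share was 48.98%, and over all sequences it was 48.4%. Counted by replicate 1 alone the heterochromatin share was 33.8%, and by replicate 2 alone 13.97%.

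Taken list by list, replicate 2 touched 21 of the 153 clusters of replicate 1 (13.7%), against 27.8% on the arms and 27.2% over all sequences. In turn, replicate 1 touched 21 of the 55 clusters of replicate 2 (38.2%), against 29.2% on the arms and 29.4% over all sequences. The 2 lists are of unequal size on these sequences, and each share depends on the coverage of the other list. The replicates shared 31982 of the 363941 bases that either of them covered (8.79%), against 11.2% on the arms. Low sharing was not common to all sequences of this kind, since the shared bases made up 15.3% on 2RHet and 7.41% on U. Replicate 2 touched 22.5% of the replicate 1 clusters on 2RHet and 12.4% on U. In the other direction these shares were 64% on 2RHet and 28.9% on U. The combined list touched 141 of the 153 replicate 1 clusters (92.2%, against 94.8% over all sequences) and 55 of the 55 replicate 2 clusters (against 98.2% over all sequences).

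**Figure D4:**
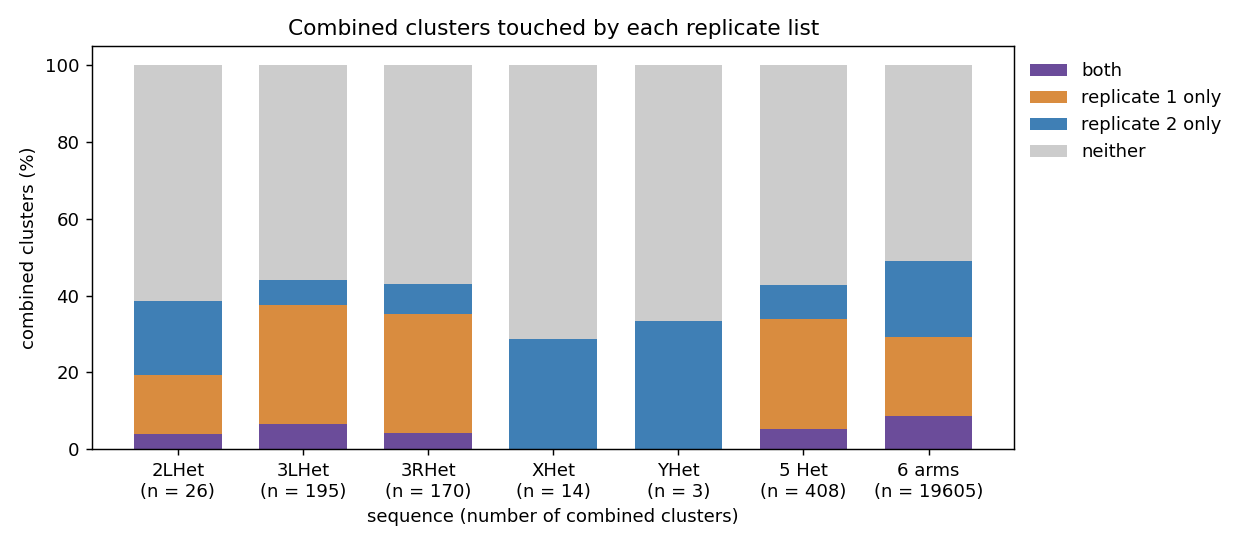
Percentage of combined clusters (vertical axis) touched by both replicate lists, by 1 of them or by neither, for each heterochromatin sequence, the 5 pooled and the 6 arms. The share touched by replicate 1 only is 28.7% for the 5 pooled and 20.7% for the arms, the share touched by replicate 2 only is 8.82% and 19.7%, and XHet and YHet are touched by replicate 2 alone.

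The 21 heterochromatin clusters touched by both replicates are called found in both below. Their combined lengths ran from 1816 to 7007 bp, with a median of 2720 bp against 1463.5 bp for all heterochromatin clusters. Clusters touched by both replicates had a longer median on the arms (3492 bp) and over all sequences (3459 bp). Combined scores of the 21 ran from 0.36 to 2.25 with a median of 0.50. Their median score rank was at the 76.9 percentile of the combined list. Of the 21, 13 lay on 3LHet, 7 on 3RHet and 1 on 2LHet. Within its own list, the cluster with the largest overlap had a score rank from the 2.11 to the 97.5 percentile in replicate 1 (median 61.4) and from the 10.1 to the 99.9 percentile in replicate 2 (median 39.2). Spearman's rho between the replicate scores was 0.32 over these 21 pairs, which share 2 libraries and lie partly side by side. Pairs were made by overlap with the combined cluster. The 7007 bp cluster held 2 replicate 1 clusters, and the pair took the one with the larger overlap, 1279278 to 1281993. That one did not overlap the replicate 2 cluster, 1283680 to 1285837, whereas the other replicate 1 cluster did. Spearman's rho thus includes a pair whose members lie at different places, although the replicates met within this cluster.

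On 3LHet, the leading cluster found in both replicates spanned 1395760 to 1398006 (2247 bp, combined score 2.25). It scored 0.79 in replicate 1 and 2.92 in replicate 2, at the 90.4 and 99.9 percentiles of those lists. It is the only one of the 26 highest heterochromatin clusters that both replicates touched. The second, at 2396230 to 2398812 (2583 bp, combined score 0.92), scored 0.54 in replicate 1 and 1.24 in replicate 2, at the 16.9 and 93.2 percentiles. The third spanned 2199191 to 2202860 (3670 bp, combined score 0.61) and scored 0.74 in each replicate. A group of 4 clusters found in both replicates lay between 697300 and 719958, in segment 3, with combined scores from 0.36 to 0.49. The longest cluster of 3LHet, at 1279042 to 1286048 (7007 bp, score 0.50), took in 2 clusters of replicate 1 and 1 of replicate 2.

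On 3RHet, all 7 clusters found in both replicates lay at or beyond position 1515625. The leading one, at 1666627 to 1669888 (3262 bp, combined score 0.71), scored 0.90 in replicate 1 and 0.72 in replicate 2. The second, at 2201162 to 2202977 (1816 bp, 0.57), scored 0.86 and 0.76 in replicates 1 and 2. The third, at 2307813 to 2309849 (2037 bp, 0.53), scored 0.82 in replicate 1, at the 92.6 percentile, and 0.52 in replicate 2, at the 23.0 percentile. The longest cluster of 3RHet and of all 5 sequences, at 1644908 to 1652136 (7229 bp, score 0.73), held 2 clusters of replicate 1 and none of replicate 2.

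On 2LHet, 368872 bp long, the replicates met at 1 place. The combined cluster at 49132 to 51217 (2086 bp, score 0.68) matched a replicate 1 cluster at 49096 to 51154 (score 0.95, 97.4 percentile) and a replicate 2 cluster at 49509 to 50919 (score 0.62, 51.3 percentile). The other replicate 1 clusters began at 26804 (1707 bp, score 0.49), 186865 (1638 bp, 0.63), 190914 (1987 bp, 0.58) and 251480 (1573 bp, 0.87). The other replicate 2 clusters began at 31963 (3845 bp, score 0.97), 153714 (1858 bp, 0.74), 167269 (4174 bp, 0.69) and 256822 (1432 bp, 0.69). The first of these matched the longest combined cluster of 2LHet, at 31990 to 37034 (5045 bp, score 0.54). The combined list left 73760 bp free of clusters, from 51218 to 124977, and neither replicate had a cluster within that stretch.

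On XHet, 204112 bp long, all clusters of replicate origin came from replicate 2. They spanned 60086 to 62104 (score 0.60), 62322 to 63813 (0.56), 75253 to 78585 (0.76) and 123286 to 124795 (1.31). The combined list had 14 clusters between 60070 and 180395 and none in the first 60069 bp. Its first 5 clusters, up to 86326, scored between 0.44 and 0.48, and the 9 after them scored between 0.57 and 1.00, a division made after the values were seen. The longest, at 75390 to 78910 (3521 bp, score 0.45), shared 3196 bp with the replicate 2 cluster of 3333 bp.

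On YHet, 347038 bp long, the combined list had 3 clusters and replicate 2 had 1. The combined clusters spanned 203737 to 205038 (score 0.93), 292566 to 293566 (1.72) and 297404 to 298865 (1.24, the longest at 1462 bp). The replicate 2 cluster, at 297267 to 298820 (1554 bp), scored 1.92, at the 99.1 percentile of its list, and overlapped the last of these. Replicate 1 listed none, and the number of clusters is too small for any further description.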

How the data were processed

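The submitters' processing notes name Bowtie 0.12.7 as the aligner, and the file headers give FlyBase release 5 as the source of the coordinates. The authors deposited a cluster list for each of the 2 ChIP libraries and a combined one, each with start and end coordinates and a log2 score for every cluster. Not given in the sources used here are the caller, its threshold, the input library and the making of the combined list. That the score is log2 was read from its values. In replicate 1, 91.1% of the 6433 scores lay a log2 ratio of whole numbers (denominator up to 200, relative tolerance 1e-09) from the most frequent one. The share was lower in the other lists, 48.4% in the combined list and 31.4% in replicate 2. With natural logarithms, and the most frequent score left out, it was 0.005% in the combined list and 0% in each replicate list. Depth is unknown, because no file gives read counts. Samples were grouped by their titles, against which the descriptions of ChIP replicate 2 (input DNA) and input replicate 1 (antibody) go.

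The 1 depleted region of the combined list was left out. Covered shares use the sequence lengths in the headers. Clusters named by position are, on each sequence, the top 3 by score among combined clusters touched by both replicates, the longest combined cluster, and all clusters of a replicate list with at most 5. The top-scoring clusters, the group of 4 on 3LHet, the longest empty stretches and the YHet clusters were picked for mention with values in view. Members and measures were chosen with earlier results of these data known. No release 5 genome or gene annotation was used, so no bases and no genes are given. Counting was tested on simulated lists. The software was Python 3.11.15 with scipy 1.17.1, pandas 2.3.3, numpy 2.4.6 and, for plots, matplotlib 3.10.9.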

Additional observations from a re-analysis of the deposited data

How the results depend on the processing

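The ratio of covered shares stayed below 1 under every alternative run, between 0.174 (replicate 2 list) and 0.57 (scores at or above the median of the list). The covered share in the combined list was 9.68% for scores at or above the median, 4.88% for clusters of at least 2000 bp, 4.74% in the replicate 1 list and 1.86% in the replicate 2 list, and the replicate mean ran from 1.86% to 4.74% with 1 replicate left out. The difference of median lengths from the arms, -65.5 bp, was 98 bp in replicate 1 and 16 bp without clusters whose scores differ from the most frequent one by a ratio of small whole numbers (chosen after seeing the data), and -286 bp for clusters of at least 2000 bp. It has no stable direction. The difference of median scores, 0.14, was 0.17 for scores at or above the median, 0.078 for clusters of at least 2000 bp, 0.10 in replicate 2, 0.12 without the small-ratio scores and 0.073 against X alone (also chosen after seeing the data). The share of combined clusters touched by a replicate was 37.1% for scores at or above the median and 48.8% when clusters within 1000 bp counted, and from 13.97% to 33.8% with 1 replicate left out. The share of replicate 1 clusters touched by replicate 2, 13.7%, was 6.09% for scores at or above the median, 4.88% for clusters of at least 2000 bp and 38.2% in the other direction. The median gap was 52677.5 bp in replicate 2. The other 51 values moved by less than the spread between replicates or stayed within the exact interval. That spread is wide, so moves inside it can be large: for clusters of at least 2000 bp the median gap was 23274.5 bp against 5963 bp and the replicate mean of the covered share 1.36% against 3.30%, and merging clusters within 1000 bp gave a difference of median lengths of -249 bp, scores at or above the median -229 bp and the replicate 2 list -211 bp. The median gap was 15501 bp in replicate 1. No paired analysis was possible because no list of the input samples was analysed here, so ChIP and input cannot be paired by number. Heterochromatin and arms were compared within each replicate list. No depth can be set beside any value, since the lists give no read counts, and the header lengths may include unsequenced bases.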
